A study of Ovis aries with 9 samples.

Results

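Hepatokines are hormones and carrier proteins that hepatocytes secrete into the blood, through which the liver acts on other organs. The 9 genes described here are FGF21, GDF15, ANGPTL4, ANGPTL8, INHBA, INHBE, FST, LECT2 and SELENOP, out of 28837 named genes in the count table. They were taken by symbol, and all 9 had a row. FGF21 is a fasting and stress hormone that acts through FGF receptors and the coreceptor beta-klotho, and its gene is a known target of the transcription factors PPARA and ATF4. ANGPTL4 and ANGPTL8 belong to the angiopoietin-like proteins that restrain lipoprotein lipase, the former typical of fasting and the latter of feeding. In ruminants late pregnancy and early milk production draw heavily on maternal glucose and fat, and the liver is the organ that handles both.

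The cells were hepatocytes from livers of female sheep (Ovis aries), freed with collagenase and picked singly by hand, and each received its own Smart-seq3xpress library, a plate-based method that covers whole transcripts. There was 1 sample for each of 9 stages. The control was virgin, 6 samples were from gestation (days 40 to 50, 50 to 70, 70 to 80, 90 to 100, 100 to 120 and 140 to 150), and 2 were from ewes in lactation, at days 7 and 15 after birth. No allele, drug or diet is named for any group. The labels name no animals and give no ages, so that p-values measure only the spread between the stage samples, and no source used here says whether a stage pools several ewes.

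The table held 3404 cells, 246 to 553 per stage, with 114865665 to 272944124 reads per stage on named genes and medians of 374832 to 469964 reads per cell. No cell's counts were identical to those of another (0 of 3404). The hepatocyte label was checked on 12 markers (a further 1 had no row), whose summed level was 154251 to 203101 CPM in gestation, 163422 in the virgin sample and 73788 to 100503 in lactation, with none of them at 0. CPM are counts scaled to a stage's total (its TMM-adjusted library size in edgeR) and then multiplied by 1000000. Markers of other cells were low. Their summed levels were at most 3.02 CPM for 5 bile duct genes, 25.3 for 9 stellate and fibroblast genes, 13.4 for 7 endothelial genes and 55.1 for 8 macrophage genes, of which CD68 was at 0. At postpartum day 7 the 4 red cell genes reached 224 CPM and the 8 lymphocyte genes 36.8 CPM, above every other stage. The 4 neutrophil genes summed to 8.13 to 12.9 CPM in lactation and 1.05 to 2.78 CPM in gestation.

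Per kilobase of gene length, which allows levels of different genes to be compared, SELENOP (2910 CPM per kilobase, mean of 9 stages) and LECT2 (1590) stood far above the rest. ANGPTL8 (81.4), INHBE (62.7) and FGF21 (19.8) followed, then ANGPTL4 (8.36), INHBA (5.84), GDF15 (2.73) and FST (2.42). Every cell of every stage had reads of SELENOP and LECT2. For the other hepatokines the share of cells with at least 1 read ran from 15.5% for GDF15 to 86.4% for INHBE over all 3404 cells. The range over stages differed as widely. FGF21 varied 276-fold between its highest and lowest stage and LECT2 1.56-fold.

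**Figure D1:**
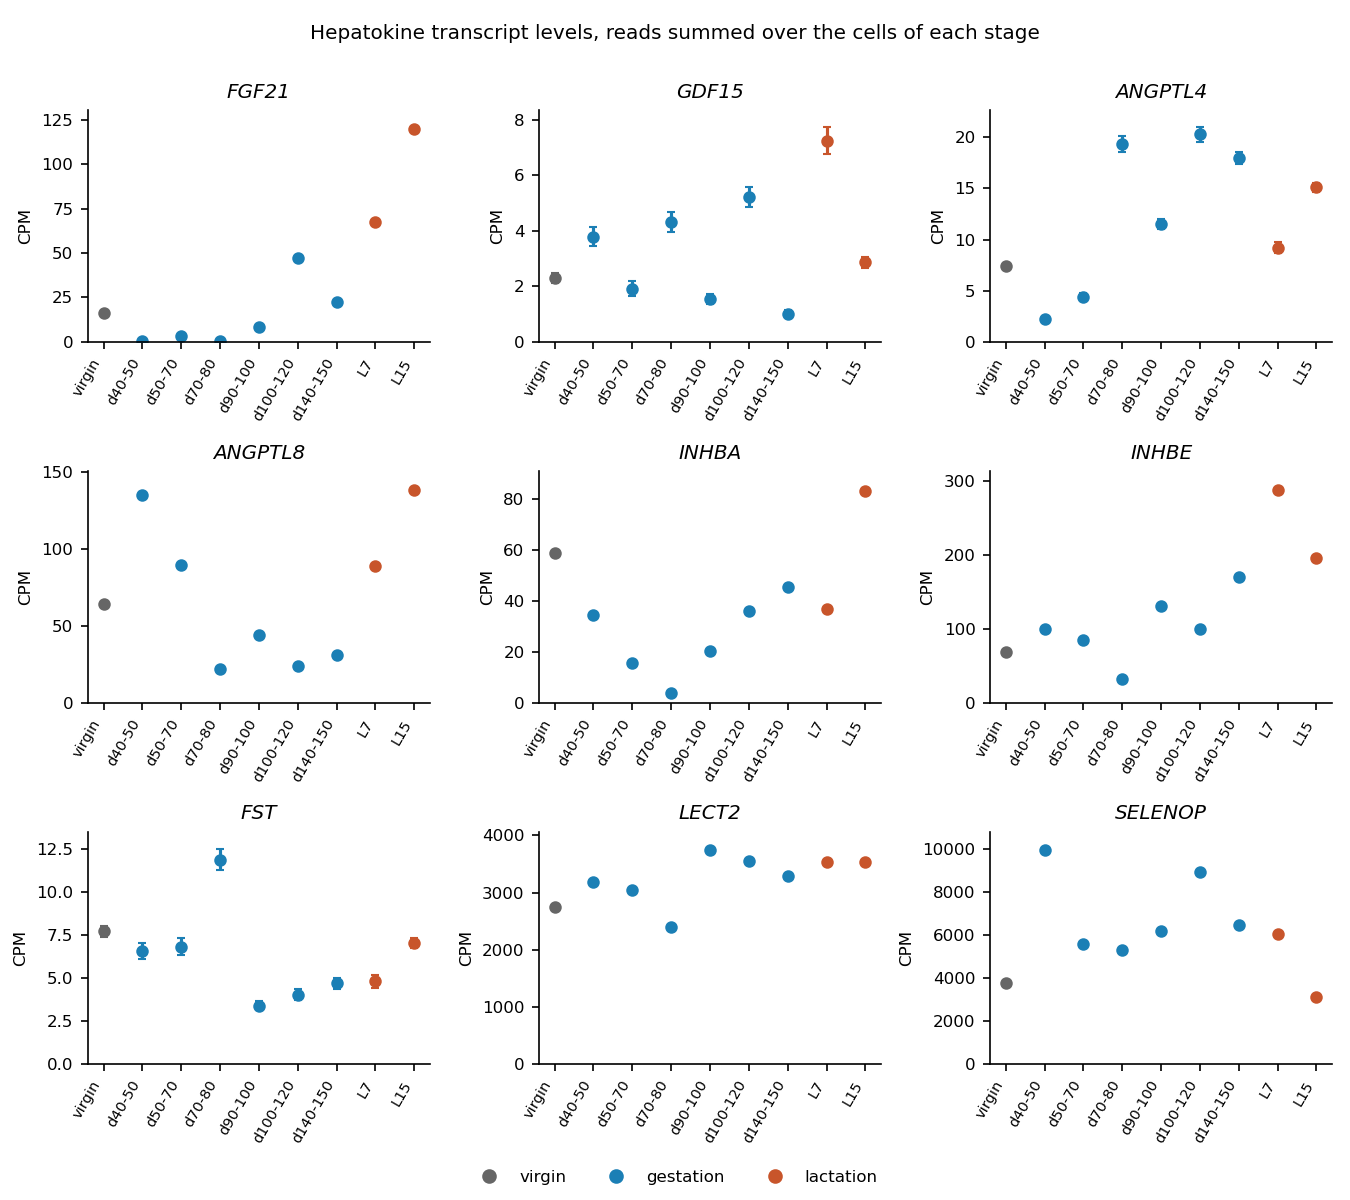
Level of each hepatokine (CPM, linear axis from 0) in the virgin sample, 6 gestation stages by day (d) and 2 lactation stages by day after birth (L), with 1 sample per stage. Bars are exact 95% Poisson intervals and cover counting error only. FGF21 and INHBE are higher in both lactation samples than in any gestation sample, and LECT2 varies least over the stages. The share of all genes that separate the groups in this way was not counted.

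FGF21, the fasting and stress hormone, was the hepatokine with the widest swing. Its level was 16.2 CPM in the virgin sample. Over gestation, in order of day, it stood at 0.434, 3.48, 0.595, 8.40, 47.4 and 22.6 CPM, and in lactation at 67.4 CPM on day 7 and 120 CPM on day 15. Both lactation samples lay above all 6 gestation samples, and the stages of days 40 to 50 and 70 to 80 were the lowest of all 9. How many of all genes separated the groups in this way was not counted, here or for the genes below. Lactation averaged 93.6 ± 37.0 CPM (SD, n = 2) against 13.8 ± 18.4 in gestation (SD, n = 6), a 6.77-fold difference of the means.

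In edgeR's quasi-likelihood fit the log2 fold change of FGF21, gestation over lactation, was -2.76 (SE 1.23, unadjusted p = 0.0485, adjusted p = 0.530 with Benjamini-Hochberg over all genes), so the difference did not pass the threshold. None of the 9 hepatokines was called between gestation and lactation, where 12 of 20263 genes tested were (0.0592%). At an unadjusted p under 0.05 there were 2 hepatokines, FGF21 and INHBE, against 1905 of all genes (9.4%). DESeq2 and limma also called 0 of the 9. Over 17 alternative settings the estimate for FGF21 stayed between -4.34 and -2.29, with adjusted p from 0.209 to 0.717 (edgeR, DESeq2 or limma).

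Along gestation the fitted slope of FGF21 was a log2 change of 6.57 per 100 days (SE 1.92, unadjusted p = 0.00907, adjusted p = 0.476, edgeR with Benjamini-Hochberg), the steepest of the 9. DESeq2 called it (6.62 per 100 days, adjusted p = 0.0285) among 306 genes of 16809 (1.82%), the only call of a hepatokine in any contrast under any setting tried. Over 17 alternatives the slope lay between 4.03 (median of 10 runs of cells, limma) and 8.70 (without days 140 to 150, edgeR), with adjusted p from 0.0285 to 0.946. The limma slope is on log2(CPM + 1), which compresses levels near 0, so it is not the same measure as that of edgeR. Alternatives without the virgin or a lactation sample repeat the main fit, since the trend uses only gestation. With edgeR 0 of 9 hepatokines were called for the trend, against 6 of 17848 genes (0.0336%), and 3 of 9 had an unadjusted p under 0.05, against 1181 of all genes (6.62%). limma also called 0 hepatokines for the trend. Between days 140 to 150 and postpartum day 7, with 1 sample on either side, the level of FGF21 was 2.98-fold higher after birth (interval 2.87 to 3.09, counting error only).

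The share of cells holding FGF21 reads also differed between stages, though not always in the order of the levels. Days 140 to 150 had a larger share than days 100 to 120 at a lower level. After every cell was thinned to 155164 reads, which kept 3063 cells, FGF21 was seen in 28.7% of virgin cells. In gestation the shares were 3.77, 19.4, 5.63, 33.8, 38.5 and 51.5% by day, and in lactation 92.4% (exact interval 88.2 to 95.5) and 94.3% (91.9 to 96.2). The unthinned shares ran from 7.22 to 52.8% in gestation and were 93.9 and 96.2% in lactation. In cells with reads the median was 61.7 and 119 CPM at postpartum days 7 and 15 and 3.59 to 74.3 CPM in gestation. The share of cells was thus higher in both lactation samples than in any of gestation, whereas the amount per such cell at day 7 lay inside the gestation range. A sum over cells alone cannot tell fewer cells with the transcript from less of it per cell.

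**Figure D2:**
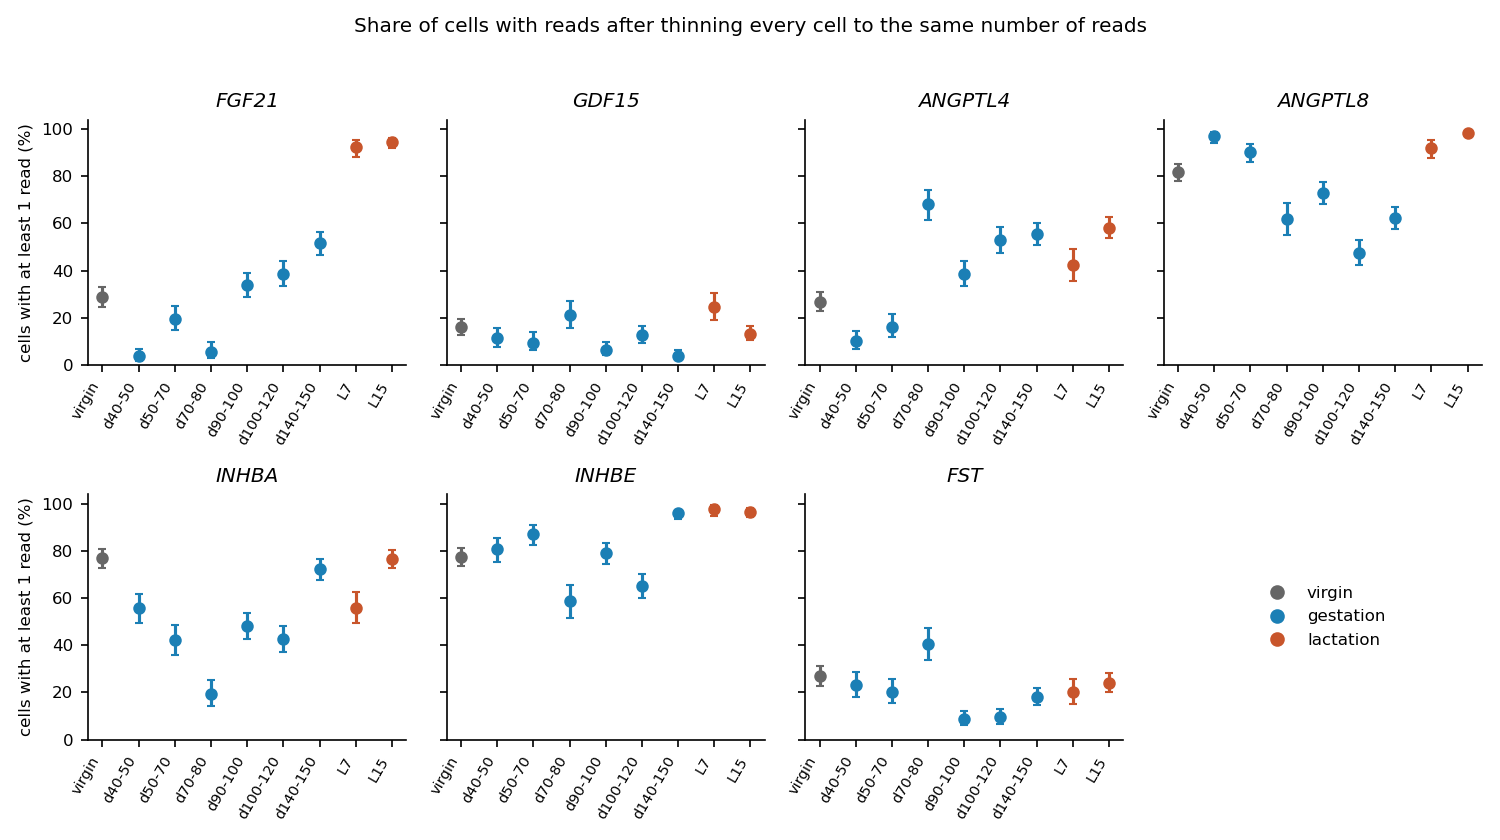
Percent of cells with at least 1 read of 7 hepatokines after thinning to equal depth, by stage, with exact (Clopper-Pearson) 95% intervals. FGF21 runs from 3.77% at days 40 to 50 to 94.3% at postpartum day 15. LECT2 and SELENOP, not drawn, were in 100% of cells of every stage.

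Hepatocyte markers were lower and neutrophil markers higher in both lactation samples than in any gestation sample. The other lists of cell markers overlapped between these groups. At postpartum day 15, where FGF21 was highest, the macrophage (12.9 CPM) and lymphocyte (2.72 CPM) sums were the lowest of all stages. Leaving out the cells with any read of PTPRC, a leukocyte gene seen in 4.52 to 17.1% of cells by stage, left FGF21 at 0.429 to 45.4 CPM in gestation and 73.0 to 134 CPM in lactation. INHBE was then 35.5 to 164 CPM in gestation and 217 to 322 CPM in lactation. Neither gene's groups overlapped once these cells were left out. The values without them were scaled to the plain library size, with no TMM adjustment. On that scale all cells together gave 0.404 to 43.6 CPM of FGF21 in gestation and 73.3 to 132 CPM in lactation. INHBE was there at 33.8 to 166 CPM in gestation and 217 to 313 CPM in lactation. The part that the lower hepatocyte marker sum has in these values was not tested.

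Genes around FGF21 were read from lists of its receptors and of ATF4 and PPARA targets. None of 6 FGF21 receptors and coreceptors was called in any contrast. KLB, which encodes beta-klotho, was at 53.4 ± 22.2 CPM in gestation (n = 6) and 46.2 ± 8.31 in lactation (n = 2). FGFR2, a receptor tyrosine kinase, was at 44.6 ± 19.6 and 15.5 ± 6.14 CPM in the same groups, the opposite order to FGF21 (log2 fold change 1.53, SE 0.47, adjusted p = 0.321, edgeR). FGFR3, another receptor, named after its values were seen, was at 13.7 ± 3.26 and 21.2 ± 7.77 CPM. That was the same order as FGF21 (log2 fold change -0.63, SE 0.27, adjusted p = 0.494, edgeR). Of 19 ATF4 targets tested between gestation and lactation, 15 were lower in gestation, with a median log2 fold change of -0.28 against 0.01 over all genes. At an unadjusted p under 0.05 (edgeR) there were 7, of which 6 were lower and 1 higher in gestation. Over all genes that share was 9.4%. In the trend 12 of these 19 had a lower level later in gestation and 7 a higher one (median slope -0.18), the opposite sign to FGF21, and none was called. Between the phases only CARS1, the cysteinyl-tRNA synthetase, was called (6.61 ± 0.891 CPM in gestation, 17.2 ± 1.79 in lactation, log2 fold change -1.38, SE 0.18, adjusted p = 0.0414, edgeR). ATF4 itself, chosen here after its values were seen, was at 228 ± 44.6 CPM in gestation and 355 ± 17.0 in lactation, where its groups did not overlap (adjusted p = 0.348, edgeR). The list's DDIT3 had no read in any of 3404 cells, which allows up to 0.00185 CPM.

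For the PPARA targets the trend held the only call. Of 15 tested, 11 had a higher level later in gestation and 8 of them reached an unadjusted p under 0.05 (edgeR). So did 1 of the 4 with a lower level, and 6.62% of all genes tested. The median slope of the 15 was 0.52 per 100 days against 0.01 over all genes. Between gestation and lactation 10 of the 15 were higher in gestation and 5 lower, with a median log2 fold change of 0.16, the opposite sign to FGF21. None was called there, and the 5 with an unadjusted p under 0.05 (edgeR) were all higher in gestation. Over all genes 9.4% had such a p in that contrast. PLIN2, which coats lipid droplets, passed the threshold and rose over gestation, with 3.77 CPM in its first stage and 103 CPM in its last (5.41 per 100 days, SE 0.52, adjusted p = 0.0269, edgeR). In lactation PLIN2 was at 21.8 and 50.3 CPM, so that its course parted from that of FGF21, which was highest there. PLIN2 was also among the 3 genes that followed FGF21 most closely from cell to cell within stages (mean Spearman rho 0.20 over 9 stages, lowest -0.11), after SLC25A47 (0.26, lowest 0.07) and G0S2 (0.22, lowest -0.08). These correlations are weak, and the cells of a stage share their sample.

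GDF15, a stress hormone that reduces appetite through the receptor GFRAL, was scarce. It stood at 2.28 CPM in the virgin sample, at 3.77, 1.90, 4.31, 1.53, 5.21 and 1.01 CPM over gestation, and at 7.24 and 2.85 CPM in lactation. The gestation and lactation groups overlapped. Thinned shares of cells lay between 3.89 and 24.4%, and at days 140 to 150 only 4.88% of the 492 unthinned cells had any GDF15 read. The sample of postpartum day 7 was 7.18-fold above that of days 140 to 150 (interval 6.16 to 8.37, counting error only). No contrast was called for GDF15 (gestation over lactation -0.77, SE 0.59, adjusted p = 0.715, edgeR). Of the list of its receptor and regulators, EGR1, an early response transcription factor, was at 0.404 ± 0.453 CPM in gestation and 0.584 ± 0.158 in lactation.

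The angiopoietin-like pair had fitted slopes of opposite sign through gestation, neither of them called. ANGPTL4 was at 2.24, 4.34, 19.3, 11.5, 20.3 and 18.0 CPM by day, and ANGPTL8 at 135, 89.6, 21.9, 44.3, 23.7 and 30.8 CPM. The fitted slopes were 2.54 per 100 days for ANGPTL4 (SE 1.05, unadjusted p = 0.0412, adjusted p = 0.739, edgeR) and -2.11 for ANGPTL8 (SE 0.67, unadjusted p = 0.0133, adjusted p = 0.563, edgeR). Leaving out days 40 to 50 gave slopes of 1.37 for ANGPTL4 and -1.46 for ANGPTL8, and leaving out days 140 to 150 gave 4.44 and -3.56. From the first gestation stage to the last, ANGPTL4 was 8.03-fold higher and ANGPTL8 4.39-fold lower, with 1 sample at each end. In lactation ANGPTL4 was at 9.17 and 15.1 CPM and ANGPTL8 at 88.9 and 138 CPM, and the virgin sample held 7.39 and 64.6 CPM. ANGPTL8 in lactation was thus close to the 2 earliest gestation stages, and the groups overlapped for both genes.

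In the 2 earliest gestation stages ANGPTL4 had lower and ANGPTL8 higher shares of cells than later, as with the levels. Single stages did not always rank alike. The level of ANGPTL8 was lowest at days 70 to 80, and its share of cells at days 100 to 120. ANGPTL4 was seen in 10.2 and 16.3% of thinned cells in the 2 earliest gestation stages and in 38.6 to 68.1% of the 4 later ones. ANGPTL8 was in 97.0 and 90.5% of the earliest and in 47.6 to 73.0% of the later ones. From cell to cell within a stage the pair had a mean Spearman rho of -0.02 over 9 stages (from -0.18 to 0.17). Many thinned cells had no ANGPTL4 read, and such ties at 0 can pull rho toward 0. ANGPTL8 overlaps DOCK6, a gene for a guanine nucleotide exchange factor, in the RefSeq gene table, and no source used here says whether counting used the strand. DOCK6 was at 9.58 CPM in the virgin sample, at 15.1, 13.1, 3.46, 6.10, 7.96 and 4.77 CPM over gestation and at 12.01 and 11.9 CPM in lactation, so it too was lowest at days 70 to 80 and higher in the 2 earliest gestation stages and in lactation. How far reads of the pair were shared was not tested. None of the other 8 hepatokines overlaps another gene in that table.

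Other genes of lipoprotein lipase control were not called in any contrast, with 11 of 12 tested between phases and 10 in the trend. APOC3, an apolipoprotein that inhibits the lipase, was at 12817 CPM in the first gestation stage and 23563 CPM in the last (0.96 per 100 days, SE 0.33, adjusted p = 0.611, edgeR). LIPG, endothelial lipase, chosen after its values were seen, was, like FGF21, lowest in the first gestation stage and highest at postpartum day 15 (0.0723 CPM at days 40 to 50, 18.3 at days 140 to 150, 13.0 and 65.8 in lactation). Its slope was 4.20 per 100 days (SE 1.27, adjusted p = 0.509, edgeR).

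The list of insulin-driven and lipogenic genes, the program that ANGPTL8 is known to follow with feeding, had 10 of 13 tested members lower later in gestation and 8 of them at an unadjusted p under 0.05. Over all genes 6.62% reached such a p in the trend. The median slope of the list was -1.94 per 100 days against 0.01 over all genes, and none of the 13 was called. THRSP, a nuclear protein tied to fat synthesis, was at 458 CPM in the first gestation stage, at 5.37 CPM in the last and at 75.4 and 363 CPM in lactation (slope -6.05, SE 0.89, adjusted p = 0.0923, edgeR). INSR, the insulin receptor, was at 138 ± 20.6 CPM in gestation and 156 ± 27.0 in lactation.

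**Figure D3:**
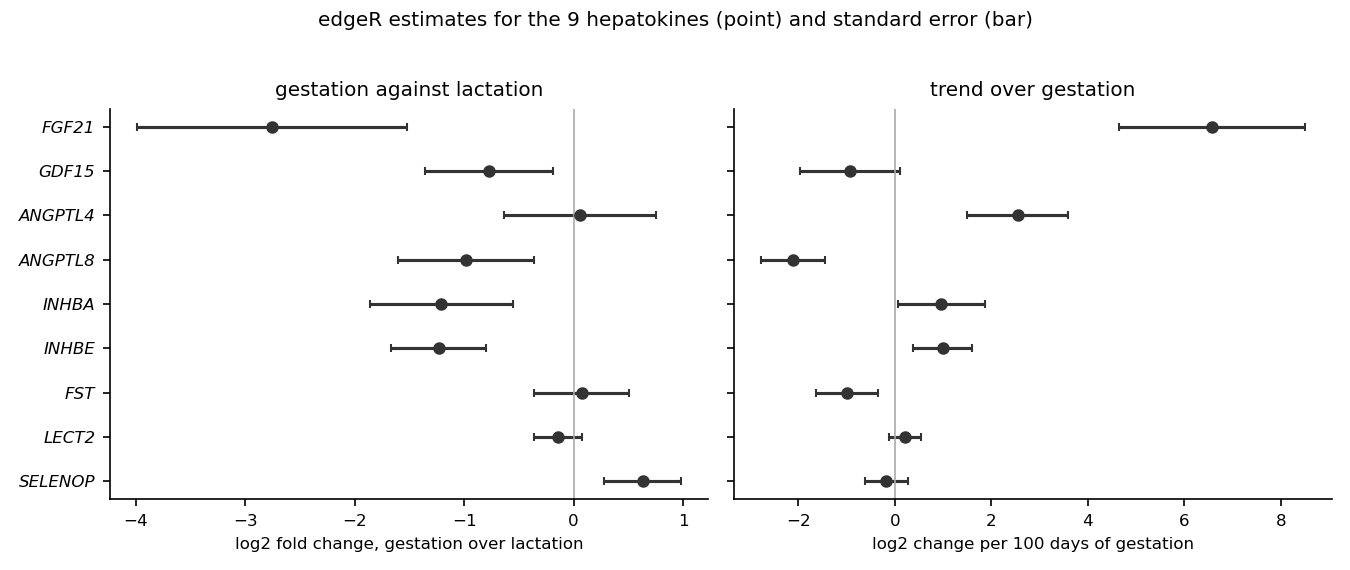
Estimates of edgeR for the 9 hepatokines. Left, log2 fold change of gestation over lactation, and right, log2 change per 100 days of gestation, each with its standard error. FGF21 has the largest estimate in both panels (-2.76 and 6.57) and the widest error, and none of the 9 passed the adjusted threshold in either.

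INHBA and INHBE encode activin beta subunits, growth factor chains that pair into activins A and E, and follistatin, the product of FST, binds and blocks activins. INHBE was at 68.5 CPM in the virgin sample, at 100, 84.7, 32.2, 132, 99.7 and 170 CPM over gestation and at 288 and 197 CPM in lactation. Both lactation samples were above every gestation sample. The means were 242 ± 64.3 (n = 2) and 103 ± 46.2 CPM (n = 6), a 2.35-fold difference, and the log2 fold change of gestation over lactation was -1.23 (SE 0.43, unadjusted p = 0.0173, adjusted p = 0.398, edgeR), the lowest adjusted p of the 9 hepatokines in that contrast. The range of estimates over 17 alternatives was -1.65 to -0.93, with adjusted p from 0.155 to 0.735 (edgeR, DESeq2 or limma).

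INHBE was also the hepatokine furthest above the virgin level in lactation relative to its error (log2 fold change 1.82, SE 0.76, unadjusted p = 0.0364, adjusted p = 0.965, edgeR). In that contrast edgeR called 0 of 20263 genes (0%), although 1000 (4.94%) had an unadjusted p under 0.05. There were 96 calls by DESeq2 and 33 by limma on per-cell means, none of them a hepatokine. Cells with INHBE reads made up 58.7 to 87.3% of thinned cells in the first 5 gestation stages, 95.9% at days 140 to 150, and 97.8 and 96.6% in lactation. The transcript was thus in nearly all cells by the end of gestation, when its level was the highest of the 6 gestation stages.

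INHBA, the subunit of activin A, ran through a minimum. Its level was 58.9 CPM in the virgin sample, then 34.3, 15.7, 3.62, 20.5, 36.1 and 45.5 CPM, and 36.7 and 83.3 CPM in lactation. Days 70 to 80 were lowest, and the range over stages was 23.0-fold. The lactation samples overlapped with gestation, and the log2 fold change of gestation over lactation was -1.21 (SE 0.65, adjusted p = 0.604, edgeR). Without postpartum day 15 it was -0.50 (adjusted p = 0.886, edgeR). FST was scarce, at 7.71 CPM in the virgin sample, at 6.56, 6.82, 11.9, 3.38, 4.02 and 4.68 CPM over gestation and at 4.79 and 7.03 CPM in lactation. Its highest stage was days 70 to 80, where INHBA, INHBE, ANGPTL8 and LECT2 were each at their lowest, and there it was seen in 40.4% of thinned cells against 8.73 to 26.8% elsewhere.

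The rest of the activin system showed no call among 16 tested genes in any contrast between phases, or among 15 in the trend. SMAD4, the shared signal carrier, was level at 26.7 ± 2.71 CPM in gestation and 28.6 ± 0.371 in lactation. FSTL1, a follistatin-like protein, was at 27.7, 43.4 and 26.8 CPM in the first 3 gestation stages and at 9.94, 7.00 and 7.19 CPM in the last 3, without overlap (slope -2.77, SE 0.60, adjusted p = 0.266, edgeR), and FST was likewise lower in the last 3 stages. INHBC, a beta subunit made in the liver and named here after its values were seen, was at 17.9 CPM on average in gestation and 19.6 in lactation.

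LECT2, a chemotactic protein secreted by hepatocytes, was the steadiest of the 9. Its level was 2739 CPM in the virgin sample, 3182, 3040, 2400, 3751, 3552 and 3288 CPM over gestation, and 3537 and 3539 CPM in lactation. The lactation values lay inside the gestation range on this TMM scale. Scaled to the plain library size they were 3844 and 3912 CPM, above every gestation sample (highest 3554 CPM). With equal weight per cell they were 3700 and 3999 CPM, against at most 3262 CPM in gestation. The log2 fold change of gestation over lactation was -0.14 (SE 0.22, adjusted p = 0.875, edgeR). Over the alternatives it ran from -0.51 (median of 10 runs, limma) to -0.073 (without days 70 to 80, edgeR). MET, a receptor that LECT2 binds, was at 37.5 ± 8.31 CPM in gestation and 35.4 ± 0.501 in lactation, and TIE1, an endothelial receptor, was near 0 (0.166 ± 0.117 and 0.0434 ± 0.0520 CPM). Of the 3 LECT2 receptors with a row, none was called.

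SELENOP, the carrier that delivers selenium from the liver to other tissues, was the most abundant. It was at 3779 CPM in the virgin sample, at 9975, 5564, 5317, 6192, 8941 and 6472 CPM over gestation and at 6048 and 3100 CPM in lactation. All 6 gestation samples were above the virgin one, and the sample of postpartum day 15 was the lowest of 9. The log2 fold change of gestation over virgin was 0.91 (SE 0.48, unadjusted p = 0.0898, adjusted p = 1, edgeR). No hepatokine was called in that contrast, nor did any reach an unadjusted p under 0.05 in edgeR, where 1 of 20263 genes was called (0.00494%) and 901 (4.45%) had an unadjusted p under 0.05. DESeq2 and limma also called 0 of 9.

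From postpartum day 7 to day 15 the level of SELENOP was 1.95-fold lower, with 1 sample on each side. Over the 9 stages its course was closest to that of APOH, a plasma glycoprotein (Pearson r = 0.99 of log2 levels, n = 9 stages, 7338 genes compared), MT1B, a metallothionein (0.96), and MAT1A, the liver's methionine adenosyltransferase (0.94). From cell to cell it was closest to PHYH, a peroxisomal enzyme of branched fatty acid breakdown (mean rho 0.56 over 9 stages, lowest 0.27), EHHADH, another peroxisomal enzyme (0.42, lowest 0.05), and ABHD12B (0.39, lowest 0.11). The mean for PHYH over 9 stages was the highest among the genes found in this way for any hepatokine. It was taken over all cells of a stage, not within the runs of cells described below. Hepatokines seen in fewer cells have many ties at 0, which can weaken rho. All these values are descriptions, with no test.

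The machinery that makes selenoproteins and the other selenoproteins showed no call. Among 11 genes of synthesis, SEPHS2, which makes the selenium donor, was at 348 ± 63.7 CPM in gestation and 268 ± 46.0 in lactation, and SELENBP1, a selenium-binding protein, at 225 ± 25.7 and 188 ± 45.05 CPM. Of 20 other selenoproteins tested, 13 were lower in gestation than in lactation, the opposite order to SELENOP. Of these, 5 had an unadjusted p under 0.05 (edgeR), a share that was 9.4% over all genes. The median log2 fold change of the 20 was -0.36 against 0.01 over all genes. DIO1, which activates thyroid hormone, was at 298 ± 70.9 CPM in gestation and 488 ± 122 in lactation (adjusted p = 0.382, edgeR), and MSRB1, a methionine sulfoxide reductase, at 156 ± 37.3 and 170 ± 5.25 CPM. LRP1, an uptake receptor, was at 16.5 ± 5.21 and 18.8 ± 3.01 CPM, and LRP8, the receptor for selenoprotein P in brain and testis, at 0.0817 ± 0.0894 and 0.521 ± 0.556 CPM.

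Across the 9 hepatokines the median log2 fold change was -0.77 for gestation over lactation (6 lower and 3 higher), 0.23 for gestation over virgin, 0.72 for lactation over virgin (8 higher and 1 lower) and 0.22 per 100 days for the trend. Over all genes these medians were 0.01, 0.06, 0.05 and 0.01. For gestation over virgin the hepatokines' median turned to -0.23 in limma on per-cell means (4 higher and 5 lower). The share of cells with reads of at least 5 of the 9 at equal depth was 76.5% in the virgin sample, 52.9 to 61.5% in the first 5 gestation stages, 81.9% at days 140 to 150, and 92.9 and 97.0% in lactation.

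Among other genes, those most like each hepatokine over the 9 stages were KRR1 for FGF21 (r = 0.94), PER1, a clock gene, for ANGPTL4 (0.93), ANO1, a chloride channel, for ANGPTL8 (0.98), MRTO4 for INHBA (0.98), CIDEA, a lipid droplet protein, for INHBE (0.97), SYS1 for LECT2 (0.93) and CDC27 for FST (0.95). Each value is over 9 stages and is the highest of 7338 genes, and the stages share 1 total each.

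Within a stage, levels of most hepatokines differed in runs along the cell number that the column names carry. The labels do not say what this numbering stands for. Each stage was divided into 10 runs of consecutively numbered cells, 24 to 56 cells each, and mean CPM with equal weight per cell was taken for each. FGF21 at days 100 to 120 had means of 66.9, 98.5, 120, 112 and 29.8 CPM in the runs 2 to 6 and between 0.341 and 2.13 CPM in the other 5, so the stage's high level came from 5 of its 10 runs. In the virgin sample 2 runs stood at 53.2 and 56.0 CPM and the other 8 at 2.69 to 11.3 CPM. INHBE at days 90 to 100 was at 11.9 to 89.1 CPM in the first 4 runs and at 193 to 278 CPM in the last 6.

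INHBA at postpartum day 15 was at 5.38 and 12.8 CPM in 2 neighbouring runs and at 85.2 to 140 CPM in the other 8. FGF21 was lowest in the same 2 runs (35.6 and 42.3 CPM, against 103 to 194 CPM). LECT2 at days 70 to 80 went from 3848 CPM in the first run to 1247 CPM in the last, and at days 140 to 150 its last 2 runs were at 1989 and 948 CPM against 3083 to 4120 CPM in the first 8.

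**Figure D4:**
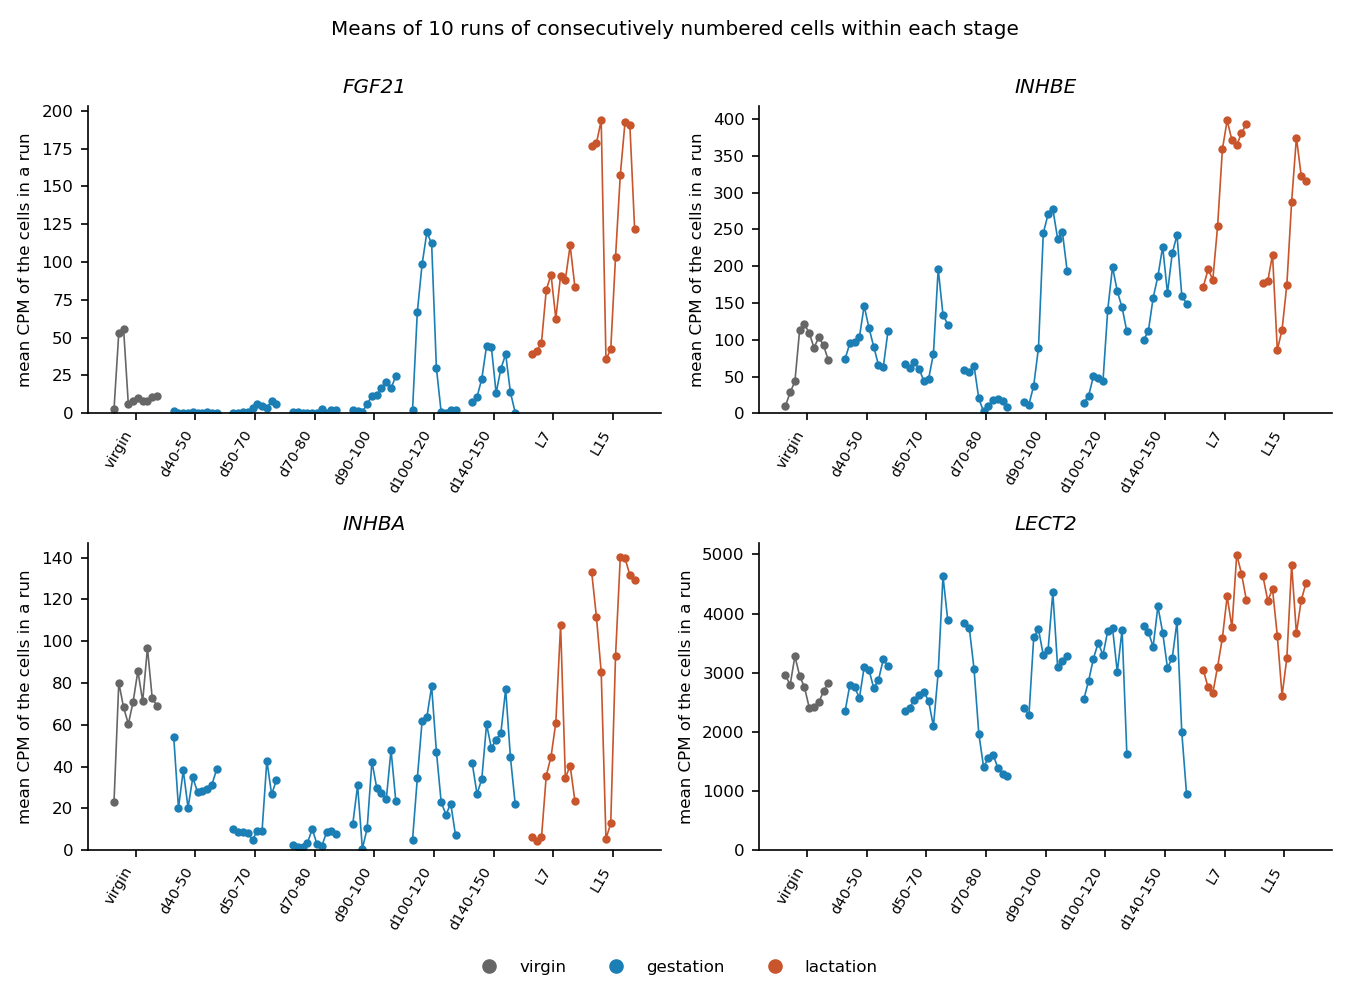
Mean level (CPM, linear axis from 0) of 4 hepatokines in 10 runs of consecutively numbered cells within each stage, joined in order of cell number. FGF21 at days 100 to 120 lies near 0 in 5 runs and reaches 120 CPM, and INHBE at days 90 to 100 splits into 4 lower and 6 higher runs.

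The share of the variance of log2(CPM + 1) over cells that lay between runs was, as a median over stages, 28.2% for SELENOP, 26.7% for INHBE, 24.2% for LECT2, 16.6% for FGF21, 13.5% for INHBA, 12.2% for ANGPTL8, 7.91% for ANGPTL4 and 4.76% for FST. The median over 9560 genes with reads in at least 20% of cells was 3.20 to 6.65% by stage. SELENOP and LECT2 were above it in 9 of 9 stages, and INHBE, FGF21, INHBA and ANGPTL8 in 8. INHBE at days 90 to 100 reached 64.8%, LECT2 at days 70 to 80 59.9% and FGF21 at days 100 to 120 57.0%. At days 40 to 50 FGF21 (1.60%), ANGPTL8 (1.89%), INHBA (3.27%) and INHBE (3.24%) were below it. The genes of that median were not matched to the hepatokines in level. The part that abundance has in these shares was not tested.

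Between stages the runs overlapped even where the stage values did not. Of 60 gestation runs, 7 had more FGF21 than the lowest of 20 lactation runs (35.6 CPM), and 32 had more INHBE than the lowest lactation run (85.9 CPM). Their medians still differed, at 2.19 and 91.4 CPM for FGF21 and 92.8 and 271 CPM for INHBE. Runs share their stage and are not replicates, so this is a description. The part that the numbering has in the stage differences was not tested.

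Relations between hepatokines across cells also depended on these runs. Over all thinned cells of a stage, INHBE and SELENOP had a Spearman rho of 0.72 at days 90 to 100, and the mean within runs was 0.32. Over 9 stages that pair's mean was 0.20 across all cells and 0.15 within runs, the highest of the 28 pairs in 8 hepatokines with reads in at least 20% of cells. LECT2 and SELENOP were the pair with the lowest mean. Across all cells their rho ran from -0.56 at days 70 to 80 to 0.09 at days 140 to 150, and 3 of 9 stages were above 0. Within runs it was below 0 in 9 of 9 stages, between -0.39 and -0.18, so cells with more of one abundant hepatokine had less of the other. For the sparser pairs the mean within runs lay near 0, as with FGF21 and ANGPTL4 (0.03) or FGF21 and INHBA (0.04), and FGF21 with INHBE reached 0.12. Cells with no read of a sparse gene tie at 0, which can pull rho toward 0.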

How the data were processed

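The authors deposited a table of read counts, whole numbers for every gene in every cell. The tools named in the submitters' processing notes are featureCounts 2.0.1, HISAT2 2.1.0 and Trimmomatic 0.39. Genome build: not given in the sources used here, nor are the use of strand and the handling of molecular identifiers. A further column of gene lengths came with the counts in the deposited table. The 24 rows that named no gene (0.474% of reads) stayed out of totals and tests.

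Counts were summed per stage and fitted with edgeR 4.0.16 in R 4.3.3 (filterByExpr, TMM, quasi-likelihood test, Benjamini-Hochberg adjustment over all genes tested, threshold 0.05). Phases were compared across the 9 stages together. The trend used only gestation, with the midpoint of each range of days as a number. The SE is the size of the log2 fold change divided by the square root of F. The edgeR fit of gestation against lactation was tested on simulated counts. Alternatives used DESeq2 1.42.0 and limma 3.58.1. The limma fits were on log2(CPM + 1), where the added 1 compresses differences between levels near 0. Cell measures used Python 3.11.15 and SciPy 1.17.1, with cells thinned to 155164 reads (341 shallower cells left out). No cell was removed from the sums, and doublets were not called in these hand-picked cells. Poisson and Clopper-Pearson intervals (95%) cover counting error only and leave out the spread between samples. The former treat reads as independent and the latter cells. Reads of 1 cell include copies made by PCR, so the Poisson intervals are too narrow even for counting error. Intervals of folds are normal approximations on the log scale from the read counts of both stages, with the same limit.

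The members and lists were chosen with earlier results of these data known. Named are all 9 hepatokines, up to 4 called genes per list or else its 2 most abundant, and the 3 genes most like each hepatokine over stages (at least 5 CPM) or cells (reads in at least 20% of cells), not all of which are printed. Some genes of the lists are not reported here. Sequences were not used here.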

Additional observations from a re-analysis of the deposited data

How the results depend on the processing

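With 1 sample per stage the spread between stages, not depth, sets the precision. Hepatokine estimates kept their direction in most alternatives, and no edgeR or limma setting called one. DESeq2 called 1 hepatokine in the trend. The number of genes called over all genes depended on the tool, and the cause was not tested. Between gestation and lactation it was 12, and 24 with thinned cells, 523 with DESeq2, 6 with equal weight per cell in limma, 22 with library size as the only scaling, 21 without a filter and 75 with the median of 10 runs in limma. Leaving out 1 stage gave 1 (without days 40 to 50 or 70 to 80) to 45 (without postpartum day 7). For gestation against virgin it was 1, then 3 thinned, 117 with DESeq2, 57 with equal weight, 5 without a filter and 595 with run medians, and 1 to 2 leaving out a stage (2 without days 50 to 70). For lactation against virgin it was 0, then 96 with DESeq2, 33 with equal weight and 520 with run medians, and 0 to 1 leaving out a stage (1 without days 140 to 150). For the trend it was 6, then 306 with DESeq2, 16 with equal weight, 17 without a filter and 0 with run medians, and 0 to 9 leaving out a stage (0 without days 140 to 150).

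Directions turned for the estimates that follow, and none of these was called. Between gestation and lactation ANGPTL4 (0.05) and FST (0.07) turned to -0.40 and -0.19 with equal weight per cell, -0.12 and -0.10 with library size alone and -0.58 and -0.40 with run medians. Leaving out stages gave -0.26 to 0.46 for ANGPTL4 (-0.12, -0.066 and -0.11 without days 100 to 120, 140 to 150 and 70 to 80, -0.26 without postpartum day 7). It gave -0.22 to 0.38 for FST (-0.22 without days 70 to 80, -0.18 without postpartum day 7) and -1.29 to 0.050 for GDF15 (the latter without postpartum day 7). Against virgin, gestation estimates turned for GDF15 (-0.23 with equal weight, -0.58 with run medians), INHBE (-0.10) and LECT2 (-0.0058) with run medians, and ranged over left-out stages from -1.20 to 0.023 for FGF21 (0.0062 without days 40 to 50, 0.023 without days 70 to 80) and -0.64 to 0.0039 for ANGPTL8. Lactation against virgin for INHBA (0.03) was -0.12 thinned, -0.22 with equal weight, -0.027 without the highest cells and -0.12 with run medians, and -0.68 to 0.50 over left-out stages. It came to -0.00097, -0.00012, -0.00067, -0.00027 and -0.00035 without 5 single gestation stages and -0.68 without postpartum day 15. SELENOP ran from -0.28 to 0.68, the former without postpartum day 7. In the trend GDF15 ran from -1.89 to 0.51 and SELENOP from -0.36 to 0.50, upward only without days 140 to 150 and days 40 to 50, respectively. The settings with run medians and without PTPRC cells were chosen after seeing the data. No paired analysis was possible because replicate numbers only follow accession order.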
